A study of Arabidopsis thaliana with 24 samples.

Results

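Cytochrome P450 genes of Arabidopsis thaliana were followed in whole seedlings kept at normal growth temperature or moved to 4 °C for 24 h. The members were the rows of the deposited gene table whose symbol has the form CYP, a number, letters and a number, such as CYP94B3, less 9 named loci that the selection left out. This gave 221 genes of the 32833 in the table, in 40 P450 families and 62 subfamilies. The rule itself uses no measured level. The members, and the lists of genes by role used below, were however chosen with earlier results of these data known. The plants were wild type (WT, the accession Col-0) and the mutant lines uap1-1 and uap1-2, both homozygous for a T-DNA insertion in the Col-0 background, so 3 genotypes under 2 conditions formed 6 groups. Each group had 4 libraries described as independent biological replicates, 24 in all, made from poly(A) RNA. Age is stated in conflicting ways. One description has 11 days of growth before the final 24 h, for a harvest at 12 days, and the extraction protocol has 10-day-old seedlings. By its title the study concerns a splicing factor, UAP1, and the cold response, and each mutant line is a single insertion line. UAP1 itself was not analysed here, because no row of the table or of the annotation used carries that name.

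P450 enzymes are haem-thiolate monooxygenases. They use molecular oxygen and electrons from a reductase to hydroxylate or otherwise oxidise a small molecule, and a cysteine near the end of the protein holds the haem iron. In plants they form one of the largest enzyme families, and they make or break down hormones such as brassinosteroids, gibberellins, cytokinins and jasmonates, as well as sterols, carotenoids, lignin precursors, cutin, suberin, glucosinolates and terpenes. Genes of the same subfamily often lie side by side on a chromosome.

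The cysteine that binds the haem is the hallmark of the family, so the coding stretch around it is shown for the genes that carry the results. Each run gives 30 bases, 5′ to 3′ on the coding strand, read from the RefSeq genome and annotation (TAIR10.1), with the codon of the cysteine in capitals.
CYP90A1: tttggtggagggccaaggctaTGTcccggt
CYP85A1: tttggaggtgggacaaggcttTGTcctggt
CYP85A2: tttggaggtggagttaggcttTGCcctgga
CYP94B3: tttcaagccgggccgagggttTGTgtaggg
CYP79B3: tttagtaccggaaagagaggaTGTgctgct
CYP83B1: ttcgggtcgggccggagaatgTGCccggcc
CYP98A3: tttggagctggaagacgggttTGTcccggt
CYP86A4: ttcaatgctggaccaaggatcTGCttgggg
CYP708A2: tttggaggtggagtgagacagTGTgtcggc
CYP71B19: tttgggtccggtcgaaggataTGTcccggg
CYP71B20: tttgggtccggtcgaaggataTGTcccggg
CYP72A15: tttgcgtggggaccgaggataTGCataggc
All 221 members had a coding sequence in that annotation, and all 221 had the same start and end there as in the deposited table. The full signature (phenylalanine, 2 residues, glycine, 1 residue, arginine, 1 residue, cysteine, 1 residue, glycine) was found in the translations of 183, and a shorter form that needs only the phenylalanine, the first glycine and the cysteine in 216. The full form was not found for CYP79B3 and CYP83B1, whose stretches are printed above. CYP72C1 was among the 5 members without the shorter form, and at 313 residues it had the shortest translation of the family, where the median was 510 and the longest 595. The stretches of the neighbours CYP71B19 and CYP71B20 differed in 0 bases, and those of CYP85A1 and CYP85A2 in 6.

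The libraries held 19289385 to 25501547 counts assigned to genes, and the P450 genes took 0.346% to 0.530% of them. After removal of low counts 155 members were tested, among 21428 genes in all, and 66 were not. Of those 66, 13 had no count in any library, and the other 53 had at most 199 counts over the 24 libraries. The samples are labelled whole plant, and 5 leaf markers were high in every library, with a summed level of 17060 to 53780 FPKM (fragments scaled to exon length and library size). The summed level of 6 root markers was 221.9 to 1263 FPKM, and the floral markers AP3, AG and PI together stayed at or under 2.463 FPKM. P-values measure the spread between these libraries. In whole seedlings, fewer cells of a type and less RNA per cell cannot be told apart.

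Most of the expressed P450 genes changed in the cold, and more of them fell than rose. In WT, 31 of the 155 tested members rose and 59 fell (edgeR's quasi-likelihood test, Benjamini-Hochberg adjusted p under 0.05 over all 21428 genes). Over all genes tested, 25.8% rose and 28.4% fell in WT, against 20% and 38.1% of the P450 genes. In uap1-1, 38 members rose and 68 fell, which is 24.5% and 43.9% of the members beside 26.7% and 29.2% of all genes. In uap1-2, 37 rose and 55 fell, 23.9% and 35.5% of the members beside 26.5% and 26% of all genes. The median difference of the members, on the log2 scale of cold over control, was -0.33 in WT, -0.51 in uap1-1 and -0.22 in uap1-2. The medians over all genes were -0.06, -0.07 and -0.01. The typical size of the difference, whatever its sign, was also larger in the members, with a median of 0.97 in WT beside 0.66 for all genes. That was not particular to cold, because the members' median was also the larger in every comparison between genotypes. For uap1-2 against uap1-1 in control it was 0.33 beside 0.16. Members and other genes were not matched for level or spread. Scaling by library totals in place of TMM factors moved the median of all genes to -0.27, -0.50 and -0.20, and the split of the members to 24 higher and 69 lower in WT, 21 and 82 in uap1-1, and 28 and 61 in uap1-2.

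The response was largely shared by the 3 genotypes, which were sampled in separate libraries. In all 3 genotypes 26 members rose and 51 fell, 35 passed the test in none, and 0 were called in opposite directions. Another 14 were called in 2 genotypes and 29 in 1 genotype, of which 21 in uap1-1, 4 in WT and 4 in uap1-2. Across the 155 genes the log2 differences of WT and uap1-1 had a Pearson r of 0.909, those of WT and uap1-2 0.897, and those of both mutants 0.896. These describe genes, which are not independent replicates. The overlap and r over all genes tested were not computed, so neither is shown to be particular to the members.

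**Figure D1:**
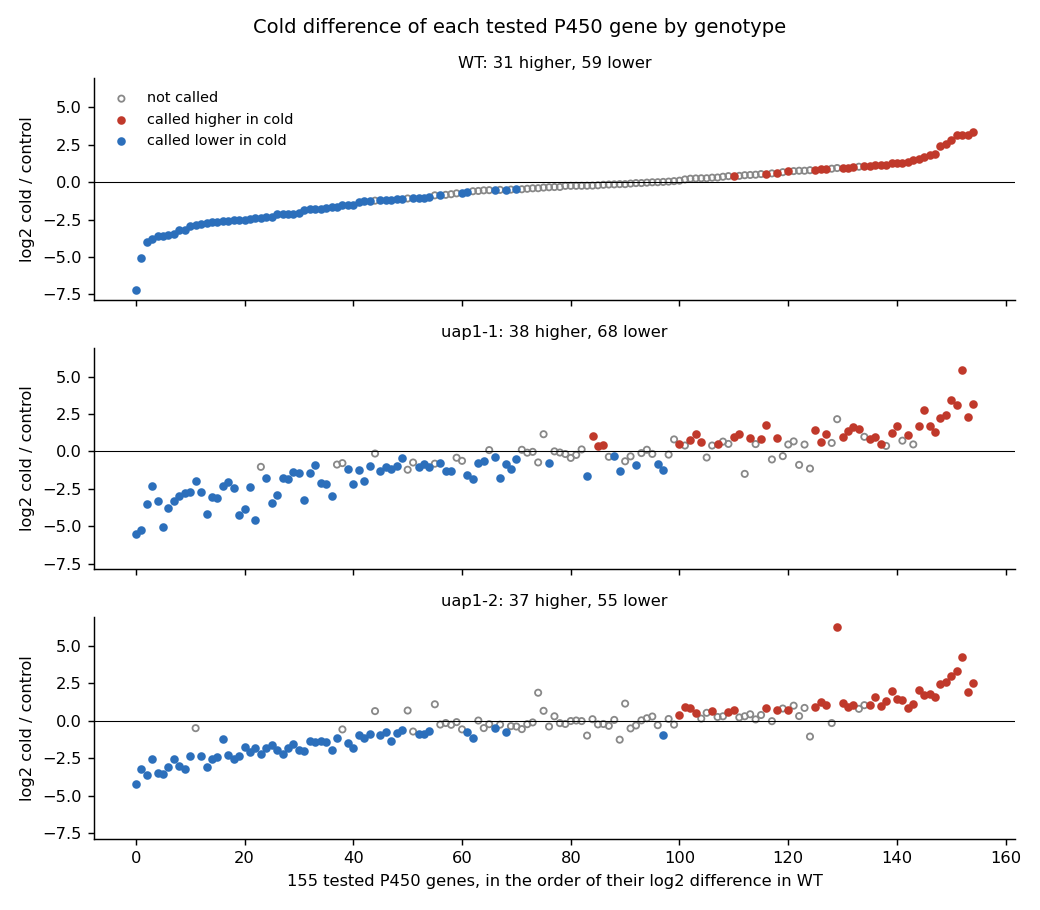
Log2 difference between cold and control (y axis) of the 155 tested P450 genes in WT, uap1-1 and uap1-2, with genes placed in every panel by their rank in WT (x axis). Filled points passed the test (red higher, blue lower in cold) and open points did not; the blue points outnumber the red in each panel, by 59 to 31, 68 to 38 and 55 to 37.

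Levels spanned 3 orders of magnitude. The mean level over the 24 libraries ran from 0.147 to 192 FPKM among the tested members, with a median of 3.42 FPKM. Only 2 members exceeded a mean of 100 FPKM, 47 exceeded 10 FPKM and 41 stayed under 1 FPKM. The 2 were CYP72A15 (192 FPKM) and CYP72A13 (110 FPKM), which lie in the same array of CYP72A genes on chromosome 3. They were followed by CYP71B26 (86.6 FPKM), CYP81D11 (84.6 FPKM), the lignin-pathway gene CYP84A1 (84.0 FPKM), CYP89A2 (79.2 FPKM), CYP89A5 (76.7 FPKM), the brassinosteroid gene CYP90A1 (69.5 FPKM), CYP72A11 (56.2 FPKM) and the lignin-pathway gene CYP98A3 (52.8 FPKM). Of these 10, CYP72A15, CYP84A1, CYP98A3 and CYP89A5 rose in the cold in WT and CYP90A1 fell. The call of CYP89A5 was lost without WT cold replicate 2 or control replicate 2 or 4 (adjusted p = 0.0747 to 0.0859). It was also lost with library totals (0.122) and by limma on log2(FPKM + 1) and log2(FPKM + 0.1) (0.101 and 0.102). The other 5 had log2 differences of -0.33 to 0.42 that did not pass the test.

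Brassinosteroids are growth-promoting steroid hormones, and P450 enzymes carry out most of the oxidations of their synthesis. Of the 6 synthesis genes tested, CYP90A1 and CYP85A1 fell in all 3 genotypes and CYP85A2 rose in all 3. CYP90A1, known as CPD, encodes an early oxidase of the pathway. In the WT control libraries it stood at 167, 143, 88.9 and 110 FPKM, and in the WT cold libraries at 36.5, 26.4, 35.1 and 23.3 FPKM. The groups did not overlap, and the same held in uap1-1 (75.1 to 105 FPKM in control, 27.5 to 38.8 FPKM in cold) and in uap1-2 (82.4 to 147 FPKM, and 25.8 to 29.9 FPKM). The log2 difference in WT was -2.07 ± 0.20 (SE, n = 4 libraries a group, adjusted p = 1.48e-08). CYP90A1 overlaps AT5G05680 on the opposite strand, and without a stated strand setting their reads cannot be told apart.

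CYP85A1 and CYP85A2 both encode brassinosteroid 6-oxidases, which act late in the pathway, and CYP85A2 also makes brassinolide from castasterone. CYP85A1 was the far weaker of the pair, at 0.202, 1.23, 0.541 and 0.845 FPKM in the WT control libraries. In the WT cold libraries it was at 0.0461, 0, 0.0240 and 0 FPKM, which is 130 counts over the 4 control libraries and 3 over the 4 cold ones. The ratio of control to cold was 39.8 (exact 95% interval of the counts 13.3 to 195, counting error only). CYP85A2 stood at 12.3, 18.1, 20.1 and 20.1 FPKM in WT control and 32.4, 42.9, 25.6 and 26.8 FPKM in WT cold. Every cold library was thus above every control library in WT, with a log2 difference of 0.86 ± 0.21 (SE, adjusted p = 0.00178). It was 1.24 ± 0.22 in uap1-2 and 0.60 ± 0.21 in uap1-1, where the lowest cold library (17.4 FPKM) lay among the control libraries (16.7 to 19.2 FPKM). With library totals the CYP85A2 call in WT was lost (adjusted p = 0.0546).

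The other synthesis genes did not pass the test in WT. CYP90B1, the C-22 hydroxylase known as DWF4, had a level of 7.49 ± 0.41 FPKM in WT control and 6.75 ± 0.68 FPKM in WT cold (SD, n = 4), and its log2 difference of -0.15 did not pass the test. CYP90C1 was at 0.03 and CYP90D1, its partner in hydroxylation of the side chain, at -0.06 in WT. In uap1-1 CYP90B1 (-0.34) and CYP90D1 (-0.92) fell. Both genes that inactivate the hormone were called in WT, in opposite directions. CYP734A1, a hydroxylase known as BAS1, fell from 3.37 ± 0.81 to 1.46 ± 0.65 FPKM (log2 difference -1.20, adjusted p = 0.000558), while CYP72C1, known as SOB7, rose from 2.19 ± 0.89 to 4.96 ± 0.91 FPKM (1.17, adjusted p = 0.00267). CYP72C1 also rose in uap1-2 (1.33), and in uap1-1 its 0.37 did not pass the test. The difference between the genotypes did not pass its own test. CYP72C1 overlaps a gene on the opposite strand.

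Some P450 enzymes of the CYP94 family oxidise jasmonoyl-isoleucine, the active form of the wound hormone jasmonate, and so turn it over. Of the 4 genes listed for that role and tested, 3 rose in WT and 0 fell, beside 25.8% and 28.4% of all genes. Of all 5 tested genes of the CYP94 family, the same 3 rose in WT and 0 fell. The list median was 1.21 on the log2 scale beside -0.06 for all genes. CYP94B3, which adds the first hydroxyl group, was at 0.458, 0.801, 0.731 and 0.115 FPKM in WT control and at 4.42, 5.01, 3.65 and 5.33 FPKM in WT cold. All cold libraries were above all control libraries in WT, and also in uap1-1 (0.412 to 1.34 against 2.39 to 11.8 FPKM) and uap1-2 (0.159 to 0.801 against 0.982 to 6.59 FPKM). Its log2 difference was 3.12 ± 0.60 in WT (SE, adjusted p = 0.000127), 3.13 ± 0.58 in uap1-1 and 3.36 ± 0.61 in uap1-2. CYP94B1, which shares that activity, rose in all 3 genotypes (1.32, 1.11 and 0.88 in the same order). CYP94C1, which takes the hydroxylated product on to the carboxylate, rose in WT (1.10, adjusted p = 0.0376), and missed the threshold in uap1-1 (0.98, adjusted p = 0.0602) and uap1-2 (1.05, adjusted p = 0.0505). The WT call of CYP94C1 was lost without WT cold replicate 1 or 4 or WT control replicate 1 or 2, with adjusted p-values of 0.0680 to 0.227. It was also lost with the replicate number as a block (adjusted p = 0.0516), with library totals (0.0814) and by limma on log2(FPKM + 1) and log2(FPKM + 0.1) (0.130 and 0.140). CYP94B2 did not pass the test in any genotype.

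Among other hormones, the strigolactone gene CYP711A1, known as MAX1, rose in all 3 genotypes. It stood at 3.02, 3.39, 5.11 and 3.57 FPKM in WT control and at 9.83, 6.04, 6.87 and 10.4 FPKM in WT cold, without overlap (log2 difference 1.13 ± 0.18, adjusted p = 1.34e-05). It overlaps a gene on the opposite strand. CYP735A2, a hydroxylase that makes trans-zeatin, fell from 1.36 ± 0.58 to 0.375 ± 0.189 FPKM in WT (-1.84) and also fell in uap1-1 (-3.26) and uap1-2 (-1.99), whereas its homologue CYP735A1 did not pass the test in any genotype. For gibberellins, 0 of the 3 tested members passed in WT. They were CYP714A1, CYP714A2 and CYP72A9, all of which modify or inactivate the hormone, at 0.238 to 0.952 FPKM in WT. The synthesis enzymes carry other symbols in the table and are not members. KO fell (log2 difference -0.57 in WT), KAO1 rose (0.53, adjusted p = 0.0467) and KAO2 (-0.02) did not pass the test.

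Genes of the first steps of indole glucosinolate synthesis fell in WT, and 1 of them, CYP79B3, was among the 10 steepest decreases of the members in WT and uap1-2. Indole glucosinolates are defence compounds derived from tryptophan. CYP79B2 and CYP79B3 convert tryptophan to an aldoxime, and CYP83B1 takes the aldoxime into the glucosinolates. CYP79B3 was at 27.0, 21.6, 22.2 and 24.2 FPKM in WT control and at 2.19, 1.56, 2.08 and 1.84 FPKM in WT cold. Over the 3 genotypes the lowest control library was at 15.0 FPKM and the highest cold library at 3.23 FPKM. Its log2 difference was -3.63 ± 0.21 in WT (SE, adjusted p = 1.77e-12), -3.30 in uap1-1 and -3.50 in uap1-2. CYP83B1 fell from 72.6, 81.2, 96.1 and 67.3 FPKM to 10.1, 7.81, 12.3 and 10.6 FPKM in WT, again without overlap (-2.96 ± 0.27). CYP79B2 was at 27.5, 22.8, 29.4 and 20.1 FPKM in WT control and 2.39, 6.32, 5.68 and 4.34 FPKM in WT cold (-2.42 ± 0.55). It also fell in uap1-2 (-2.22). In uap1-1 its cold libraries were split, at 24.0, 1.16, 18.4 and 4.00 FPKM, so that libraries 1 and 3 reached the control range, up to 29.4 FPKM, or came close to it, and the difference (-1.03, adjusted p = 0.0986) did not pass.

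The same 2 libraries stood apart in CYP82C2, which acts on a related indole defence compound and was not tested because of its low counts. It had 57 and 87 counts in uap1-1 cold libraries 1 and 3, and at most 14 in every other library. CYP71A12, which dehydrates the aldoxime, rose in all 3 genotypes (1.52 in WT, 1.72 in uap1-1, 2.04 in uap1-2), from 2.61 ± 1.20 to 7.51 ± 4.78 FPKM in WT. It shares 18.2% of its 31-base words with other sequence in the genome, so its counts are less certain, and its WT call was lost without WT cold replicate 2 (log2 difference 0.98, adjusted p = 0.175) or WT control replicate 1 or 4 (1.33 and 1.35), and with library totals (adjusted p = 0.0584). Limma on log2(FPKM + 1) and log2(FPKM + 0.1) did not call it in WT (adjusted p = 0.0667 and 0.0616). In uap1-1 cold CYP71A12 had 335 and 821 counts in libraries 1 and 3, and 102 and 190 in libraries 2 and 4, beside 118 to 225 in uap1-1 control. CYP81F3 rose in uap1-1 (0.73) and uap1-2 (0.87) and its neighbour CYP81F4 fell in uap1-1 (-0.76, adjusted p = 0.0426), and neither passed in WT. CYP71A13 and CYP71B15, the camalexin gene PAD3, did not pass in any genotype, and neither did CYP81F2. Over the list, 1 of the 9 tested members rose and 3 fell in WT, beside 25.8% and 28.4% of all genes, with a median of -0.36. In uap1-1 and in uap1-2, 2 rose and 3 fell, with medians of -0.14 and 0.65.

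**Figure D2:**
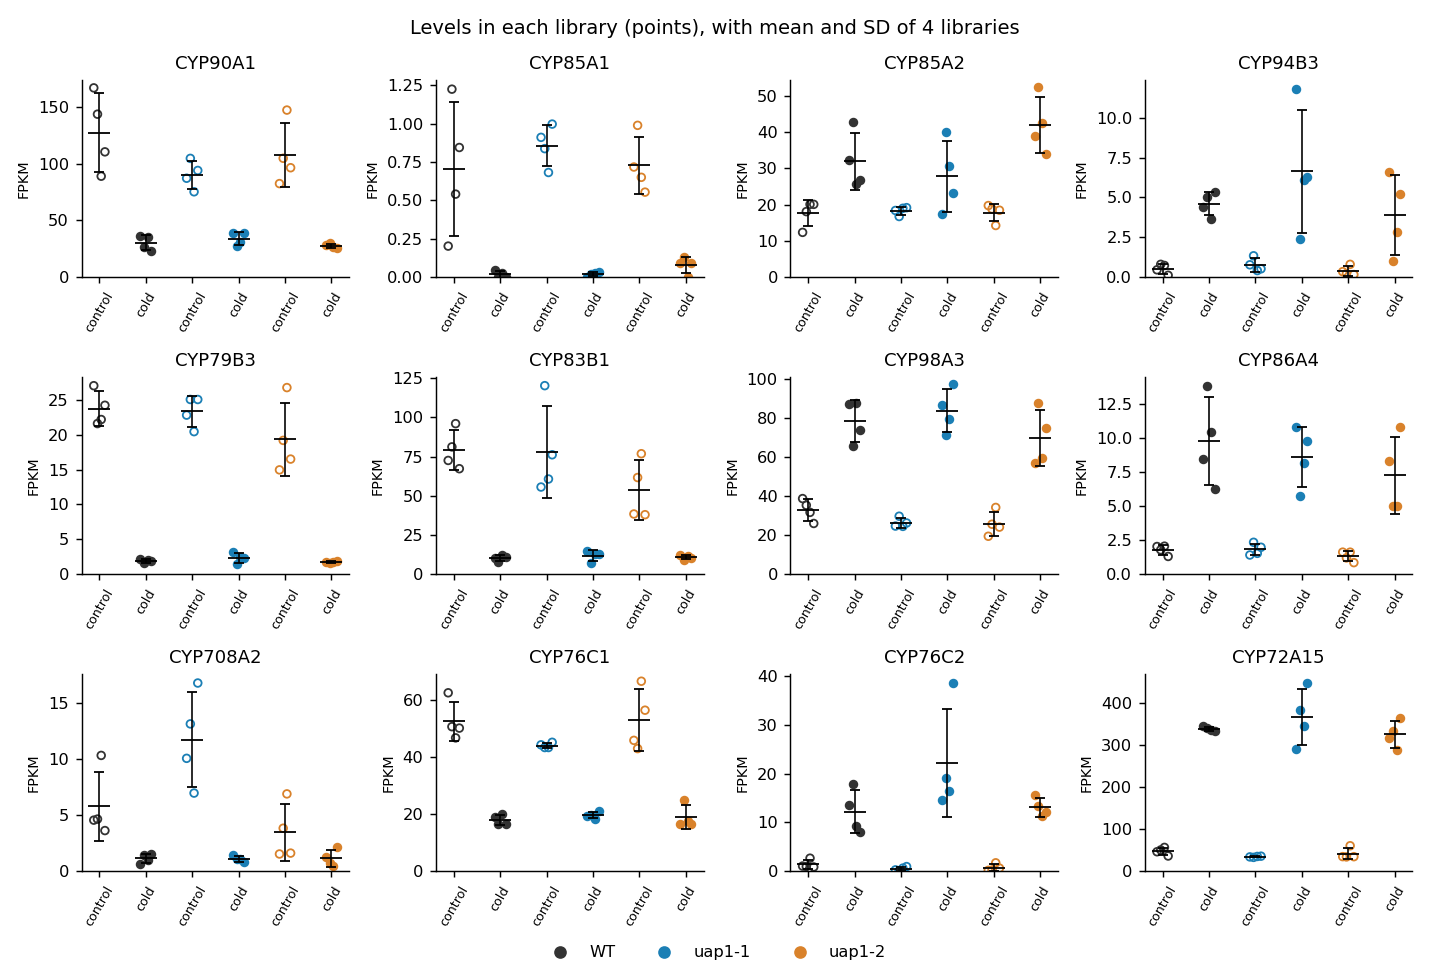
Level in FPKM (y axis, linear, from 0) of 12 P450 genes in each of 24 libraries; open points are control and filled points cold libraries, coloured by genotype, with the mean and SD of 4 libraries. The levels of CYP90A1, CYP79B3, CYP83B1 and CYP76C1 are lower in every cold library than in every control library of the same genotype, and those of CYP98A3, CYP86A4, CYP76C2 and CYP72A15 are higher.

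Of the P450 enzymes that hydroxylate phenylpropanoids, both tested members that act in lignin synthesis rose. CYP98A3, the coumarate 3-hydroxylase of the lignin pathway, stood at 38.7, 35.3, 31.6 and 26.0 FPKM in WT control and at 87.1, 65.5, 87.4 and 73.8 FPKM in WT cold. No library of one condition reached the range of the other, in any genotype. The log2 difference was 1.25 ± 0.17 in WT (SE, adjusted p = 1.94e-06), 1.67 ± 0.17 in uap1-1 and 1.44 ± 0.17 in uap1-2. CYP84A1, the ferulate 5-hydroxylase that leads to sinapate esters and syringyl lignin, rose from 57.6 ± 18.4 to 104 ± 23.3 FPKM in WT (0.86 ± 0.27), and by 1.19 and 1.09 in uap1-1 and uap1-2. Its relative CYP84A4, which has a separate role in the synthesis of pyrones, fell from 2.12 ± 0.94 to 0.478 ± 0.114 FPKM (-2.13 ± 0.39 in WT). CYP98A3 and CYP84A4 overlap genes on the opposite strand. CYP98A8 and CYP98A9, which act in pollen, were not tested, and neither were the pollen-wall genes CYP703A2 and CYP704B1.

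Every call among the fatty acid hydroxylases that supply cutin and suberin was a rise. In WT, 3 of 7 tested members of that list rose and 0 fell, in uap1-1 4 rose and in uap1-2 3, with medians of 0.54, 0.80 and 0.39. Over all genes tested, 25.8%, 26.7% and 26.5% rose, in the same order. CYP86A4, a hydroxylase of cutin monomers, was at 2.03, 1.78, 2.05 and 1.3 FPKM in WT control and at 8.43, 13.8, 10.4 and 6.25 FPKM in WT cold. The groups were separate in each genotype, and the log2 difference was 2.44 ± 0.30 in WT (SE, adjusted p = 3.38e-07), 2.25 in uap1-1 and 2.46 in uap1-2. CYP86B1, which hydroxylates very long chain acids for suberin, went from 4.40, 3.50, 3.11 and 2.15 FPKM to 9.96, 18.9, 11.7 and 7.60 FPKM in WT (1.87 ± 0.40, adjusted p = 0.000373). It also rose in uap1-1 (1.31) and uap1-2 (1.58), though in uap1-2 the cold libraries ran from 3.42 to 13.7 FPKM and the lowest lay within the control range of 1.24 to 3.83 FPKM. CYP86A2 rose in all 3 (0.80, 1.41 and 0.92), its WT call being lost without cold replicate 3 or control replicate 3 or 4 (0.73, 0.74 and 0.66), and it overlaps genes on the opposite strand. CYP86A8, a hydroxylase known as LACERATA, rose in uap1-1 (0.80). CYP86A1, the root suberin hydroxylase, CYP86A7 and CYP77A6 did not pass in any genotype.

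**Figure D3:**
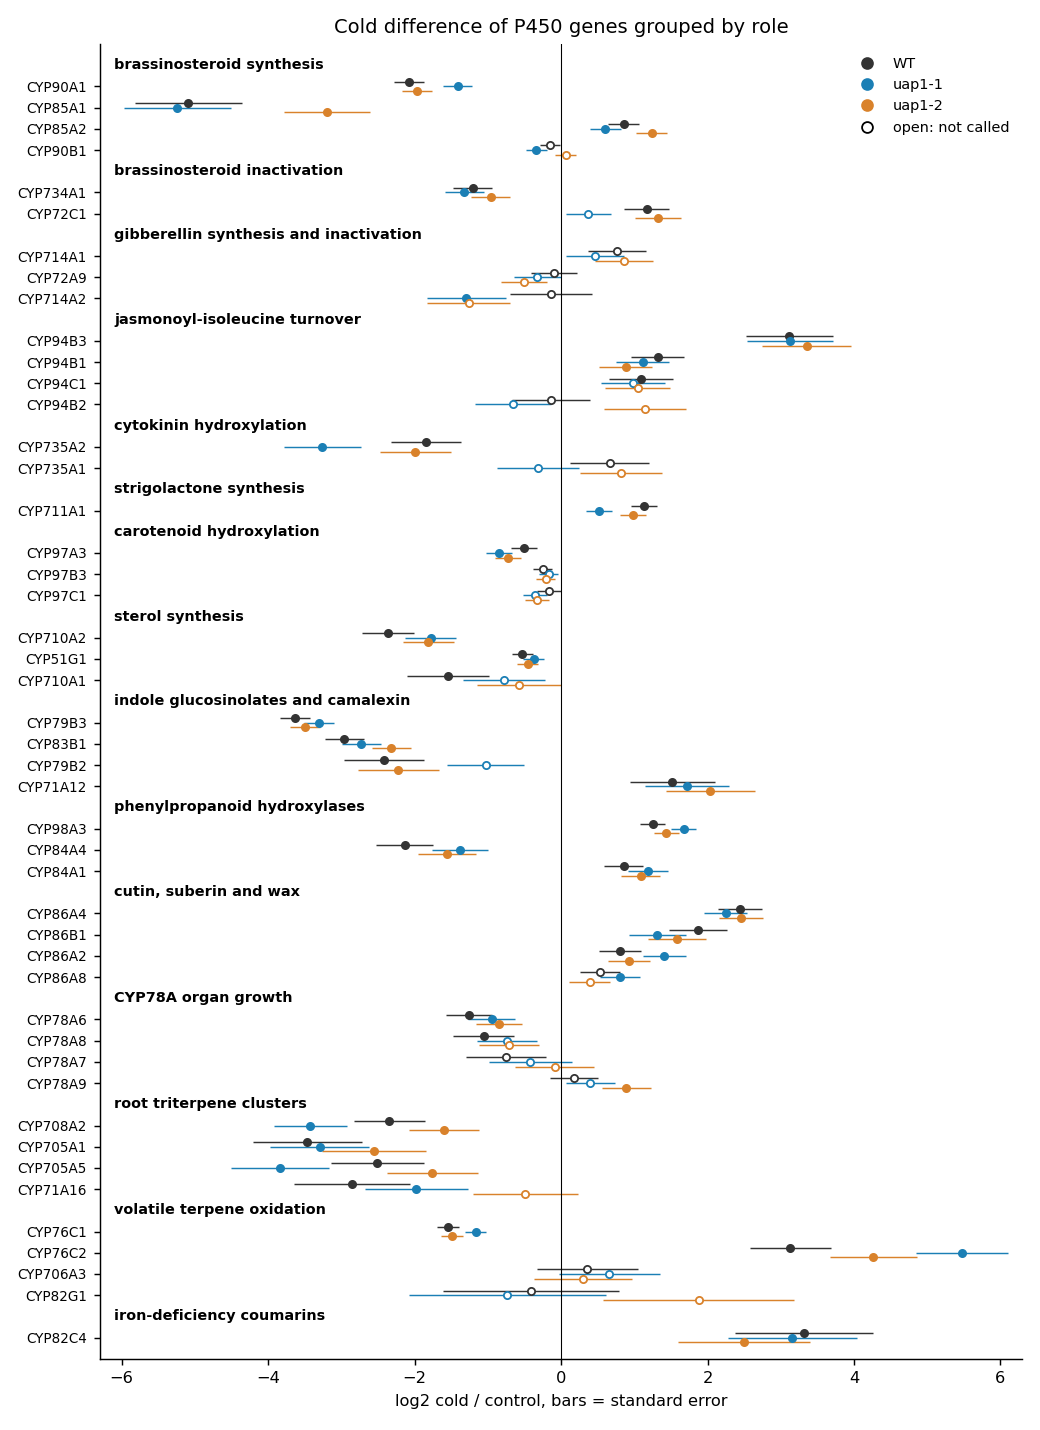
Log2 difference between cold and control (x axis), with its standard error, for the P450 genes named under each role, in WT, uap1-1 and uap1-2; filled points passed the test and open points did not. The indole glucosinolate genes CYP79B3 and CYP83B1 lie between -3.63 and -2.32 and the cutin gene CYP86A4 between 2.25 and 2.46.

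Sterol and carotenoid genes fell or did not pass. CYP51G1, the sterol demethylase, fell slightly from 47.3 ± 7.6 to 32.7 ± 4.7 FPKM in WT (-0.53, adjusted p = 0.00305) and in both mutants. The sterol desaturases CYP710A2 and CYP710A1 are neighbours on chromosome 2. CYP710A2 fell from 11.9 ± 4.0 to 2.31 ± 0.40 FPKM in WT (-2.36) and in both mutants (-1.78 and -1.81). CYP710A1 fell in WT (-1.55, adjusted p = 0.0236), with differences of -0.78 and -0.57 in the mutants that did not pass. Its WT call was lost without WT control replicate 3 (-0.98, adjusted p = 0.145) or WT cold replicate 1 or 3 (-1.50 and -1.44). Of the carotenoid hydroxylases, CYP97A3 fell in all 3 genotypes (-0.51, -0.84 and -0.73), though not in WT without cold replicate 3 or control replicate 3 or 4 (-0.46, -0.40 and -0.45). CYP97B3 and CYP97C1 had WT differences of -0.25 and -0.16 that did not pass. Of the CYP78A genes, which affect organ and seed size, CYP78A6 fell in all 3 genotypes (-1.26 in WT). CYP78A9 rose in uap1-2 (0.89) and did not pass in WT or uap1-1. CYP78A8 passed in WT (-1.05) and not in the mutants. That call was lost without any 1 of the 4 WT cold libraries or without WT control replicate 1 or 3, and without the last the difference was -0.45 (adjusted p = 0.330). It was also lost by limma on log2(FPKM + 1) and log2(FPKM + 0.1) (adjusted p = 0.0568 and 0.0517).

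The P450 genes of the root triterpene clusters fell. These clusters make thalianol, marneral and arabidiol derivatives in roots. In WT 4 of the 5 tested members fell, and 4 and 3 in uap1-1 and uap1-2, with medians of -2.51, -3.29 and -1.60. Over all genes tested, 28.4%, 29.2% and 26% fell, in the same order. CYP708A2, the thalianol hydroxylase, was at 4.55, 4.65, 10.3 and 3.62 FPKM in WT control and at 0.618, 1.43, 1.02 and 1.49 FPKM in WT cold. In uap1-1 control it was at 10.1, 13.1, 6.97 and 16.8 FPKM, and in uap1-2 control at 1.54, 3.83, 6.90 and 1.61 FPKM, where 2 control libraries lay inside the cold range of 0.469 to 2.15 FPKM. The log2 differences were -2.35 ± 0.49, -3.42 ± 0.50 and -1.60 ± 0.48 in WT, uap1-1 and uap1-2 (adjusted p = 0.000291, 5.13e-06 and 0.00748). CYP705A5, the desaturase beside it in the thalianol cluster, fell by 2.51 on the log2 scale in WT, from a range of 3.44 to 10.7 FPKM to one of 0.766 to 2.38 FPKM. The arabidiol gene CYP705A1 fell in all 3 genotypes, the marneral gene CYP71A16 in WT and uap1-1, and CYP705A12 passed in none.

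The summed level of the 6 root markers moved too. Its median was 778 FPKM in WT control (441.3 to 1031) and 428.6 FPKM in WT cold (394.3 to 442.9), 930.8 and 441.5 FPKM in uap1-1, and 589.2 and 312.4 FPKM in uap1-2. That sum was mostly the beta-glucosidase gene PYK10, which fell by 0.89, 1.36 and 0.89 on the log2 scale in WT, uap1-1 and uap1-2. CASP1, COBL9 and SHR did not pass in any genotype, and IRT1 and PIN2 rose in WT, by 1.58 and 1.01. None of the 6 was at 0 throughout. The part of root content in the decrease of the triterpene genes was not tested.

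A pair of neighbours in the CYP76C array on chromosome 2 moved in opposite directions. CYP76C1 and CYP76C2 both encode enzymes that oxidise monoterpenols such as linalool, and 644 bases separate the genes. Their proteins were 77.8% identical over 509 aligned residues. CYP76C1 stood at 62.6, 50.7, 46.8 and 50.2 FPKM in WT control and at 18.9, 16.5, 20.2 and 16.6 FPKM in WT cold. CYP76C2 stood at 1.06, 0.958, 2.67 and 0.865 FPKM in WT control and at 13.5, 17.8, 9.27 and 8.12 FPKM in WT cold. CYP76C1 was thus lower and CYP76C2 higher in every cold library than in every control library. The log2 differences in WT were -1.54 ± 0.15 (adjusted p = 9.64e-09) for CYP76C1 and 3.13 ± 0.55 (adjusted p = 5.03e-05) for CYP76C2. In uap1-1 CYP76C2 went from a range of 0.108 to 0.946 FPKM to one of 14.6 to 38.5 FPKM (5.47 ± 0.62), and in uap1-2 from 0.175 to 1.72 FPKM to 11.2 to 15.7 FPKM (4.26 ± 0.59). The other 2 genes of the array, CYP76C4 and CYP76C3, were not tested. The 250 bases before each start are shown because the pair moved in opposite directions. Both read 5′ to 3′ on the gene's strand, with motif matches in capitals.
CYP76C1 (chr2:18778677-18778926, minus strand): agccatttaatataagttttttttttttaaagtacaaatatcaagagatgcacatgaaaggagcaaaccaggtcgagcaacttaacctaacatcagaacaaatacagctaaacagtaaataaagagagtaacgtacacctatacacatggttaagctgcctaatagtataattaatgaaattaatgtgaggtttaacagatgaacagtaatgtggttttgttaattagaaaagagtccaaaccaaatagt
CYP76C2 (chr2:18781974-18782223, minus strand): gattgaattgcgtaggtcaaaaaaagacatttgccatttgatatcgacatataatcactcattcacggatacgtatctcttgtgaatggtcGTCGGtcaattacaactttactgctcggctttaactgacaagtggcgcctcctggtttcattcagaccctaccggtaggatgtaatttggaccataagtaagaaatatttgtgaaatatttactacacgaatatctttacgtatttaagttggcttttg
The motifs searched on both strands were the evening element AAAATATCT, the CRT/DRE core CCGAC, the ABRE core ACGTG and the G-box CACGTG, of which the last contains the ABRE core. CYP76C2 held 1 CRT/DRE core, written here from the opposite strand, and CYP76C1 held none of the 4.

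Over the window from 250 bases before to 50 bases after the start, the CRT/DRE core was found in 15.9% of the 21319 tested genes with a sequence there, 9.0% of the 155 tested members, 3 of the 31 members that rose in WT and 3 of the 59 that fell. The evening element was in 3.0% of all genes, 3.9% of the members, 0 of those that rose and 2 of those that fell. The ABRE core was in 27.7% of all genes, 24.5% of the members, 7 of the 31 and 15 of the 59. The G-box was in 8.6% of all genes, 5.2% of the members, 1 of the 31 and 2 of the 59. These matches describe letters in a short window and say nothing of the factors.

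The most abundant member, CYP72A15, was also among those that rose most. It stood at 46.2, 50.5, 56.5 and 36.1 FPKM in WT control and at 344, 340, 336 and 333 FPKM in WT cold. The cold libraries of the mutants spanned 291 to 448 FPKM in uap1-1 and 287 to 363 FPKM in uap1-2, and their control libraries 32.8 to 35.7 FPKM and 34.0 to 60.5 FPKM. The log2 difference was 2.84 ± 0.19 in WT (SE, adjusted p = 1.88e-11), 3.42 ± 0.19 in uap1-1 and 2.99 ± 0.19 in uap1-2. CYP72A15 shares 11.1% of its 31-base words with other sequence in the genome. Its neighbour CYP72A14, 83.2% identical in protein and 527 bases away, rose less, from 5.01 ± 2.32 to 10.8 ± 1.1 FPKM in WT (1.11 ± 0.38, adjusted p = 0.0159). The other 6 genes of this array of 8, CYP72A7 to CYP72A13, did not pass in WT, while CYP72A13 rose in uap1-1 (1.18) and uap1-2 (0.53) and CYP72A11 in uap1-1 (0.49). The bases before the 2 genes that rose are given in the same form.
CYP72A14 (chr3:4934080-4934329, plus strand): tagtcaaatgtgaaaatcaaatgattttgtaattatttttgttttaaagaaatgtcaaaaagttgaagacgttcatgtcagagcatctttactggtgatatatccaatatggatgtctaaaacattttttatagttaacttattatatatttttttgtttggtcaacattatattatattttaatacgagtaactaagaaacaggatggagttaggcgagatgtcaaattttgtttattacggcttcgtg
CYP72A15 (chr3:4936922-4937171, plus strand): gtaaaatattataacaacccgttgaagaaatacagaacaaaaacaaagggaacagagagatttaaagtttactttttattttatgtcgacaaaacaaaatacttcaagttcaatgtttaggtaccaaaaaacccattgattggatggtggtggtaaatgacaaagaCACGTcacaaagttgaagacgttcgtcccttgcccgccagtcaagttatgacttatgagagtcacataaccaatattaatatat
CYP72A15 held 1 ABRE core, read on the opposite strand, and CYP72A14 none of the 4 motifs.

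Arrays were runs of P450 genes with at most 1 other gene between consecutive members, and such consecutive members are called neighbours here. They held 121 of the 221 members, in 36 arrays of up to 9 genes. Among 54 pairs of neighbours that were both tested, 17 were called in the same direction in WT, 3 in opposite directions, 23 had 1 of the 2 called, and 11 had neither. Of all tested members 20% rose and 38.1% fell in WT. Pairs of other genes were not counted, and whether neighbours moved together more than other members was not tested. Besides the CYP76C pair, the opposite pairs were CYP706A1 and CYP706A2, and CYP71B12 and CYP71B13. CYP706A1 fell from 27.4, 47.8, 27.4 and 35.3 FPKM to 3.55, 3.92, 4.11 and 3.60 FPKM in WT (-3.18), and CYP706A2 rose from 0.0983 ± 0.0199 to 0.888 ± 0.297 FPKM (3.14). Their proteins are 97.1% identical and 50.5% and 65.4% of their 31-base words occur elsewhere, so counts of this pair are uncertain. CYP71B12 (-1.17) and CYP71B13 (1.10) are 81.5% identical in protein, and 20.7% and 12.6% of their 31-base words occur elsewhere.

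**Figure D4:**
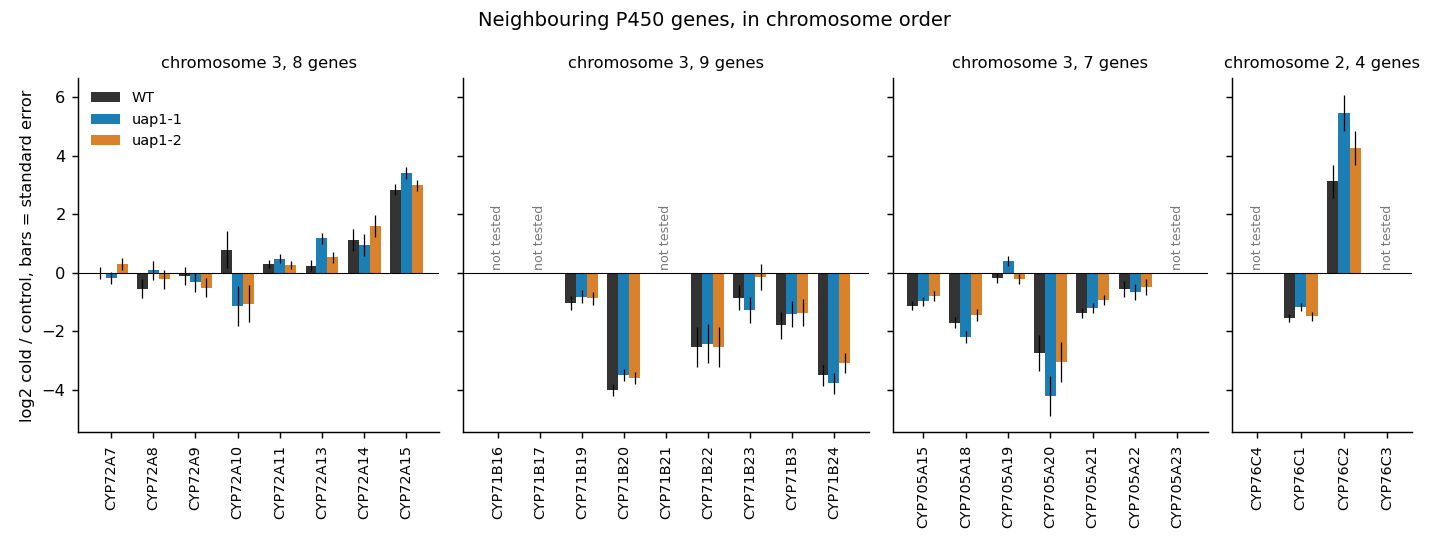
Log2 difference between cold and control (y axis; bars with standard errors) for P450 genes in chromosome order in 4 arrays, in WT, uap1-1 and uap1-2. In the CYP72A array the bars are largest at CYP72A15, the tested CYP71B genes all lie under 0, and CYP76C1 and CYP76C2 point in opposite directions.

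The large CYP71B and CYP705A subfamilies mostly fell. In WT, 13 of 22 tested CYP71B genes fell and 1 rose (median -1.0), with 14 and 2 in uap1-1 and 12 and 3 in uap1-2. Over all genes tested, 28.4% fell and 25.8% rose in WT. CYP71B20 was at 41.4, 43.6, 39.6 and 45.0 FPKM in WT control and at 3.16, 2.29, 2.82 and 2.27 FPKM in WT cold (-4.01 ± 0.21, adjusted p = 3.33e-13), and fell by 3.50 and 3.59 in uap1-1 and uap1-2. Its neighbour CYP71B19 fell less, from 14.6 ± 1.9 to 7.10 ± 1.78 FPKM (-1.04 ± 0.23). The pair share the haem stretch printed above, and 29.8% and 33.2% of their 31-base words occur elsewhere, so reads may be split between them. In the CYP705A subfamily, which holds genes of the triterpene clusters, 11 of 19 tested members fell and 0 rose in WT, 15 fell and 1 rose in uap1-1, and 11 fell and 0 rose in uap1-2. The medians were -1.12, -1.29 and -0.79, beside -0.06, -0.07 and -0.01 for all genes. In the CYP71A subfamily 5 of 13 fell and 2 rose in WT. CYP71A24 fell from 0.735 to 1.61 FPKM in the WT control libraries to 0 in 3 WT cold libraries and 0.0264 FPKM in the other, or from 235 counts to 1 (ratio 216, exact 95% interval 38.4 to 8560, counting error only).

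Smaller subfamilies were mixed. In WT 2 of 6 tested CYP81D genes rose and 1 fell, 2 of 5 CYP89A genes rose and 1 fell, and 3 of 7 CYP706A genes rose and 2 fell. Of the CYP96A genes, 4 of 12 were tested, and 0 rose and 2 fell in WT. Over all genes tested 25.8% rose and 28.4% fell in WT, and sets this small were not tested against those shares. CYP81D5 had very even libraries, at 6.63, 5.99, 6.48 and 6.29 FPKM in WT control and 38.8, 36.2, 40.7 and 33.9 FPKM in WT cold (2.56 ± 0.16, adjusted p = 7.57e-12), and rose by 2.43 and 2.58 in uap1-1 and uap1-2. CYP709B3 fell from 27.7, 26.5, 33.8 and 27.8 FPKM to 3.60, 2.45, 3.31 and 3.02 FPKM in WT (-3.23 ± 0.19), by 3.00 in uap1-1 and by 3.02 in uap1-2. CYP76C6, CYP89A6 and CYP722A1 rose in all 3 genotypes, by 1.78, 1.67 and 1.25 in WT. The largest of their differences was 2.76 for CYP89A6 in uap1-1, a gene that shares 29.4% of its 31-base words with other sequence. CYP76C6 shares 25.6% of its words, and CYP722A1 overlaps a gene on the opposite strand. Large decreases in all 3 genotypes were also those of the neighbours CYP86C3 and CYP86C4 (-2.64 and -3.81 in WT), CYP706A7 (-2.65) and, in the CYP71 and CYP705 families, CYP71B24 (-3.51), CYP71A20 (-3.58), CYP705A20 (-2.74) and CYP705A30 (-2.53). CYP86C4, for example, was at 1.60, 1.08, 2.31 and 1.54 FPKM in WT control and at 0.101, 0.0510, 0.0785 and 0.231 FPKM in WT cold. The calls of CYP71A20 in WT and uap1-2 were lost by limma on log2(FPKM + 1) (adjusted p = 0.078 and 0.158). In uap1-2 that gene had 49 counts over the control libraries and 3 over the cold ones. CYP82C4, which hydroxylates the iron-mobilising coumarin fraxetin, rose in all 3 genotypes (3.32, 3.16 and 2.49) at a very low level, 0.0254 ± 0.0295 FPKM in WT control and 0.271 ± 0.115 FPKM in WT cold. Its call in uap1-2 was lost without cold replicate 1 or control replicate 1, 2 or 3 (adjusted p = 0.0628 to 0.115), and by limma on log2(FPKM + 1) (0.126). CYP82C4 shares 22.1% of its 31-base words with other sequence. The iron transporter gene IRT1, one of the root markers, rose in WT and uap1-2 (1.58 and 2.35). CYP81G1 had 0 counts in the 4 uap1-2 control libraries and 37 in the 4 cold ones, at least 14.9-fold higher against a floor of 3 counts over the group. The cold counts were 17, 1, 17 and 2 in libraries 1 to 4, so most came from libraries 1 and 3. The call was lost by limma on log2(FPKM + 1) (adjusted p = 0.0744), and CYP81G1 overlaps genes on the opposite strand.

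By edgeR, no P450 gene was called between genotypes. The 4 comparisons of a mutant with WT, the 2 comparisons of cold responses and the 2 of uap1-2 with uap1-1 each gave 0 called members. Over all genes tested the calls were 0.00467% for uap1-1 against WT in control, 0.00933% for uap1-2 against uap1-1 in control and 0% for the other 6. Unadjusted p-values under 0.05 were found for 24 of 155 members (uap1-1 against WT in control), 15 (uap1-2 against WT in control), 5 and 11 (the same in cold), 22 and 4 (difference of cold response of uap1-1 and of uap1-2 from WT), and 25 and 14 (uap1-2 against uap1-1 in control and in cold). As shares of the members beside shares of all genes, these were 15.5% beside 9.15% and 9.68% beside 5.38% for uap1-1 and uap1-2 against WT in control. In cold they were 3.23% beside 2.71% and 7.1% beside 4.73%. For the differences of cold response they were 14.2% beside 8.6% (uap1-1) and 2.58% beside 1.73% (uap1-2). For uap1-2 against uap1-1 the members' share was above that of all genes in control (16.1% beside 6.32%) and under it in cold (9.03% beside 11.1%). DESeq2 called 1 member, CYP702A5, in uap1-2 against uap1-1 in control and 0 in the other 7. Over all genes DESeq2 called 35 and 13 for uap1-1 and uap1-2 against WT in control, 0 and 0 in cold, 1 and 0 for the differences of cold response, and 23 and 3 for uap1-2 against uap1-1 in control and in cold. Limma on log2(FPKM + 1) called CYP705A30 in uap1-1 against WT in control, and CYP705A30, CYP702A5 and CYP708A2 in uap1-2 against uap1-1 in control.

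Those calls were of higher levels in the uap1-1 control libraries, and edgeR made none of them (adjusted p = 0.407 to 0.661). The uap1-1 control libraries of CYP708A2, given above, overlapped those of WT control. CYP705A30 shares 19.9% of its 31-base words with other sequence in the genome. CYP702A5 was at 5.29, 7.0, 6.14 and 5.47 FPKM in uap1-1 control, at 1.79, 3.38, 5.39 and 1.71 FPKM in WT control and at 1.06, 2.58, 2.14 and 1.07 FPKM in uap1-2 control. The uap1-1 libraries were above all uap1-2 libraries, and the highest WT library lay within their range. By edgeR, uap1-2 minus uap1-1 was -1.80 ± 0.43 on the log2 scale (adjusted p = 0.451). The root marker sum in the same control libraries was 879.6 to 1263 FPKM in uap1-1, 441.3 to 1031 in WT and 395.3 to 829.8 in uap1-2, and its part in these differences was not tested. CYP89A5 had the smallest p of the members in uap1-1 against WT in control. It was at 36.3, 37.7, 34.8 and 36.3 FPKM in uap1-1 control and at 76.2, 56.8, 74.2 and 58.3 FPKM in WT control, without overlap. The log2 difference was -0.87 ± 0.22 (adjusted p = 0.333). In cold it was at 91.1 to 172 FPKM in uap1-1 and 93.1 to 109 FPKM in WT. CYP89A5 shares 48.6% of its 31-base words with other sequence in the genome.

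The partners that bring electrons to P450 enzymes are not members but serve many of them. ATR1 and ATR2 encode the NADPH-cytochrome P450 reductases, and ATR1 had the higher level in control but ATR2 in cold. ATR1 fell from 51.5 ± 4.8 to 29.2 ± 1.5 FPKM in WT (log2 difference -0.82 ± 0.11, adjusted p = 1.8e-06) and by 0.68 and 0.71 in uap1-1 and uap1-2. ATR2 rose from 33.6 ± 3.5 to 130 ± 9.1 FPKM in WT (1.96 ± 0.15, adjusted p = 1.8e-10) and by 2.08 and 1.9 in the mutants. Among the cytochrome b5 genes, whose proteins assist some P450 enzymes, CB5-A rose (0.96 in WT), and CB5-C (-1.89) and CB5-D (-1.46) fell, in all 3 genotypes. CB5-D, a partner of CYP84A1 in syringyl lignin synthesis, went from 184 ± 53 to 66.6 ± 13.1 FPKM in WT. CB5-B, CB5-E and the scaffold gene MSBP1 did not pass in any genotype. MSBP2, its homologue, rose in uap1-1 (0.48) and uap1-2 (0.53), and CBR1, a cytochrome b5 reductase gene, rose in uap1-1 (0.39), and neither passed in WT.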

How the data were processed

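RNA of 24 libraries was sequenced on an Illumina platform as read pairs, and the deposited table gives, per the file headers, a whole-number count and an FPKM per gene and library. Per the submitters' processing notes, the authors used cutadapt 1.9.1, HISAT2 2.2.1, HTSeq 0.6.1 and the build TAIR10; no strand setting is stated in what was used here. The authors' FPKM equalled count over exonic length and library total to within 0.005. The 9 loci that the selection left out were not analysed among the members.

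Counts were tested with edgeR 4.0.16 (R 4.3.3): TMM factors (0.808 to 1.238), a low-count filter (filterByExpr, min.count 10, min.total.count 15), 1 mean per group over all 24 libraries, quasi-likelihood tests, and Benjamini-Hochberg adjustment over 21428 genes. Printed levels are FPKM recomputed with TMM-scaled totals, as mean ± SD of 4 libraries. Each SE of a log2 difference was taken as the size of that difference over the square root of the test's F statistic, so it is approximate. The test was also run on simulated counts drawn from its own fitted spread, with few genes changed. In the real data 11619 of the 21428 genes were called for cold in WT. That run therefore could not check the scaling, and nothing here rests on it. Alternatives were DESeq2 1.42.0, limma 3.58.1 on log2(FPKM + 1) and log2(FPKM + 0.1), other scalings, no filter, a 2-fold minimum, the replicate number as a block, and each library left out. Any 2 replicates differed by more than sampling noise (chi-square per degree of freedom 8.78 to 152 over 36 pairs). Same-numbered libraries, with numbers from the titles, deviated together in every pair of uap1-1 cold and uap1-2 cold (r of 0.233 to 0.536) and not in every pair of any other 2 groups (lowest r of -0.529), so the block is a pairing from the data, not the labels, for that comparison. A 31-base word counts as shared where it also occurs elsewhere in the genome.

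Genes named were, for each cold comparison, the 10 highest and 10 lowest log2 differences among called members, up to 4 members of each list with the smallest adjusted p in WT, and the 10 highest mean levels. Genes shown by library, the promoters and haem stretches, CYP702A5, CYP705A30, CYP82C2 and CYP89A5 in the genotype comparisons, and list members outside that rule were chosen after their values were seen. The members and lists were chosen with earlier results of these data known.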

Additional observations from a re-analysis of the deposited data

Results flagged for a closer look

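In the 138 groups of 4 libraries formed by 23 selected genes and 6 groups, 7 held a library far from the other 3 (by Dixon's ratio, at its 95% critical value). This is about the 1 in 20 that chance gives. CYP702A5 and CYP86C4, also printed by library, were not among the 23. WT control library 3 was high in CYP76C2 (2.667 FPKM, the others at 0.865 to 1.06) and in the thalianol gene CYP708A2 (10.33 FPKM, the others at 3.62 to 4.65). In uap1-2 control, library 3 was high in CYP72A15 (60.49 FPKM, the others at 34.0 to 34.6) and library 2 in CYP711A1 (4.442 FPKM, the others at 3.68 to 3.74). In uap1-2 cold, library 2 was high in CYP76C1 (25.12 FPKM, the others at 16.5 to 17.6). In uap1-1, cold library 3 was high in CYP81D5 (44.40 FPKM, the others at 34.3 to 35.1) and control library 2 low in CYP709B3 (15.88 FPKM, the others at 26.7 to 28.0). Each of these libraries stayed on the side of its own condition.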

How the results depend on the processing

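Leaving out 1 library at a time gave 81 to 92 called members for cold in WT (90 with all libraries), 90 to 109 in uap1-1 (106) and 82 to 95 in uap1-2 (92), and 0 in each of the 8 genotype comparisons. DESeq2 called 91, 108 and 93 members for cold in WT, uap1-1 and uap1-2, limma on log2(FPKM + 1) 91, 105 and 87, and edgeR without the members that share over 10% of their 31-base words, an alternative added after seeing the data, 74, 84 and 75. In the genotype comparisons limma on log2(FPKM + 1) called 1 member in uap1-1 against WT in control and 3 in uap1-2 against uap1-1 in control, where DESeq2 called 1; the cause was not tested. With the replicate block 92, 103 and 89 members were called for cold and 0 in each genotype comparison, uap1-2 against uap1-1 in cold included, and among the named values it ended the WT call of CYP94C1 and brought CYP89A2 and CYP72A11 past the threshold in WT. Of 104 named values, 86 were called, 73 of them under all 31 alternatives and 13 not under all, and 0 reversed. The members at the lowest levels are those most limited by depth: 66 were not tested, and at 4 libraries a group a p that misses the threshold does not show that levels were equal.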
